A study of Mus musculus with 5 samples.

Results

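The 10 genes described here are tumor suppressors whose promoters are often methylated in cancer: Cdkn2a, Cdkn2b, Cdkn1a, Cdh1, Rassf1, Socs1, Sfrp1, Wif1, Id4 and Dapk1. They were taken by gene symbol from the GENCODE vM21 annotation of the mouse genome (GRCm38), where they are 10 of 21755 protein-coding genes on the autosomes and the X chromosome. No measured value was used to choose them, but the list was drawn up with earlier results of these data known. All 10 were covered deeply enough to be tested at their promoters and over their gene bodies.

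Methylation was measured by whole-genome bisulfite sequencing (WGBS), in which bisulfite turns unmethylated cytosine into uracil while methylated cytosine stays, so that each read gives a methylated or an unmethylated call at a CpG. The cells were blasts of acute myeloid leukemia (AML), of strain C57BL/6 per the labels, from the bone marrow of transplanted mice, sorted as live donor-derived cells (CD45.2+) without CD3, B220 and Ter119, which mark T cells, B cells and red cells. Blasts of both groups were Cebpa-/p30, meaning that 1 Cebpa allele was deleted and the other gave only p30, the short isoform of this myeloid transcription factor. Tet2, which encodes an enzyme that starts the removal of methyl groups from cytosine, was intact in 2 libraries (Tet2+/+, numbers 23 and 24) and deleted in 3 (Tet2-/-, numbers 5, 7 and 8). Per the methods of the study, deletion was induced with poly(I:C) through Mx1-Cre, an interferon-responsive Cre that also acts in cells outside the blood, after the donor marrow had been transplanted into lethally irradiated recipients. Donors were C57BL/6J mice and recipients females of the congenic strain C57BL/6J.SJL, whose own cells the CD45.2 gate leaves out. Recipients were young adults at transplantation, and marrow was taken when they were moribund. The paper reports that Tet2-/- leukemias arose with shorter latency, so age and time since deletion at sampling may differ between the groups. Both groups received the inducer. The libraries are labelled as biological replicates.

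A promoter that is rich in CpGs is usually free of methylation in normal cells, and dense methylation there goes along with a silent gene. TET enzymes oxidise methylated cytosine and so open a path to its removal, and in blood cells the loss of TET2 is known to add methylation mainly at enhancers and at the borders of unmethylated regions. Among the 10 genes, Cdkn2a, Cdkn2b and Cdkn1a encode inhibitors of cyclin-dependent kinases, which hold the cell cycle. Sfrp1 and Wif1 encode secreted antagonists of Wnt signalling. Socs1 encodes a feedback inhibitor of JAK kinases, Id4 a helix-loop-helix protein that blocks other transcription factors of this class from binding DNA, Cdh1 the adhesion protein E-cadherin, Rassf1 a scaffold that links RAS to the Hippo kinases, and Dapk1 a kinase that promotes cell death.

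The deposited calls carried the deletion. In Tet2, a run of 36 CpGs (chr3:133466411-133468351) held 128 and 151 calls in the Tet2+/+ libraries and 0 calls in each Tet2-/- library. Depth was 2.96 to 5.19 calls per CpG, counting both strands together, and lowest in Tet2-/- library 8. Over the genome the methylation level, which is methylated calls as a percentage of all calls, was 62.3% and 67.3% in the Tet2+/+ libraries and 68.4% to 74.8% in the Tet2-/- libraries, so that differences at single genes are to be read against a shift of the whole library. On the mitochondrial genome, which serves as a measure of incomplete conversion, 0.807% to 0.989% of calls were methylated. Around the 10 genes the depth was 96.5% to 135% of the mean of the autosomes of the same library, and it varied by at most 1.15 times between libraries at any gene. Of the marker lists the myeloid one had the lowest median, with 4 of its 10 promoters over 20%, Ly6g among them at 90.1% in Tet2+/+ blasts. The median over 10 myeloid promoters was 10.1% in Tet2+/+ and 18.1% in Tet2-/- blasts, against 58.3% and 69.5% over 6 B cell promoters and 65.9% and 74.7% over 7 T cell promoters. Over 6 erythroid promoters the medians were 33.9% and 48.9%. Of these 29 marker promoters 2 rose in Tet2-/- blasts by edgeR's quasi-likelihood test, Cebpe from 2.68% to 19.4% (adjusted p = 0.041) and Hba-a1, which has a near-identical copy, from 41.5% to 86.6% (adjusted p = 0.0415), where 1.06% of all promoters were called higher. All Tet2-/- libraries were higher at 12 of the 29, where 32.8% of all promoters were. The first call was lost without Tet2+/+ library 23 or 24 or Tet2-/- library 7 or 8, with adjusted p of 0.0927 to 0.485, and also by limma (0.0612) and with flanks of 500 bp (0.0684). The second was lost when any 1 of the 5 libraries was left out, with adjusted p of 0.0785 to 0.419. The share of other cells in each sort was not tested beyond these promoters.

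The sequences at the start sites show what kind of promoter each gene has. The following stretches of 300 bases are those of the genes with the highest and the lowest methylation within 250 bp of the 5′ end, taken from RefSeq (GRCm38). Of the 10 genes, 8 had an entry in the table used, with 11 start sites in all, and Cdh1 and Sfrp1 had none. The 3 highest genes were Cdkn1a (88.8% in the mean of the 5 libraries), Sfrp1 (57.2%) and Id4 (19.3%), so that of Sfrp1 is named only. Each is written 5′ to 3′ along the gene, from 250 bases before to 50 bases after the start, and the capitals mark CpGs, the sites at which methylation was read. The upstream start of Cdkn1a (chr17:29090729-29091028, + strand), with 2 CpGs:
Cdkn1a upstream start: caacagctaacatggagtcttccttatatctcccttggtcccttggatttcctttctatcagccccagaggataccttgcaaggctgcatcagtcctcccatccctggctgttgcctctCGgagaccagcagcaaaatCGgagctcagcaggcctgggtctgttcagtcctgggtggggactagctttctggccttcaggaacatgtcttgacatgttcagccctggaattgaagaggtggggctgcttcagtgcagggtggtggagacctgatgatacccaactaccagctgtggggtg
The downstream start of the same gene (chr17:29093519-29093818, + strand), shown for the contrast, with 23 CpGs:
Cdkn1a downstream start: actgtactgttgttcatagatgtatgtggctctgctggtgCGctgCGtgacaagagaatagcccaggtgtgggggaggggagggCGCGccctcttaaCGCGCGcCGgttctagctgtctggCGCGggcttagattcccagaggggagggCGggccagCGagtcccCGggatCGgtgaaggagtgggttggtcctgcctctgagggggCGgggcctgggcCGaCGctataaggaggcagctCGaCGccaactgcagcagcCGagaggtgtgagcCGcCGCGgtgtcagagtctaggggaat
The start of Id4 (chr13:48260866-48261165, + strand), with 39 CpGs:
Id4: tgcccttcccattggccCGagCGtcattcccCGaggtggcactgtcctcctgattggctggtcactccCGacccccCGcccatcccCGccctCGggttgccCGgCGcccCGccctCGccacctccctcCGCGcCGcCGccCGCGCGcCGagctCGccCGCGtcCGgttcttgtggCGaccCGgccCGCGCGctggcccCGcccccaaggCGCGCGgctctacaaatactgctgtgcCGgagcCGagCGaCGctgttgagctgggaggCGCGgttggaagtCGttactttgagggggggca
The start of Socs1 (chr16:10785487-10785786, - strand), with 18 CpGs:
Socs1: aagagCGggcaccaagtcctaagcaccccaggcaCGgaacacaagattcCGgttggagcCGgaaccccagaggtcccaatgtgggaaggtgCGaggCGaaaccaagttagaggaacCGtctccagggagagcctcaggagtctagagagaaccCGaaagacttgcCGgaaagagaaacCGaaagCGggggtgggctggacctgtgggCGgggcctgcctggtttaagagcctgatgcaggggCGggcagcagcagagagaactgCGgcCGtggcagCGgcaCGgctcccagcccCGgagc
The start of Dapk1 that lies 264 bp downstream of its 5′ end (chr13:60601961-60602260, + strand), with 38 CpGs:
Dapk1: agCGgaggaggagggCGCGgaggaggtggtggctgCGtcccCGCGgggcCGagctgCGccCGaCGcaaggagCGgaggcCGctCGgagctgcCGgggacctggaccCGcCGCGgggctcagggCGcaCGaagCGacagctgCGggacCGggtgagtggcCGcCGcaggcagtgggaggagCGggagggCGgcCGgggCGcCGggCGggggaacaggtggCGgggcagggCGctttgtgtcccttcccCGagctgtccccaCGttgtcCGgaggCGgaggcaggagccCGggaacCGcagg

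Over these 300 bases the level was 73.7% and 88.9% at the upstream start of Cdkn1a in Tet2+/+ libraries 23 and 24, against 100%, 82.4% and 100% in Tet2-/- libraries 5, 7 and 8, with only 7 to 19 calls per library at its 2 CpGs. At the downstream start of Cdkn1a it was 0% in 4 libraries and 1.8% in library 5, with 35 to 143 calls. At Id4 it was 19.3% and 4.69% in Tet2+/+ and 26.2%, 7% and 13.6% in Tet2-/- libraries 5, 7 and 8, so that the groups overlapped. At Socs1 the level stayed between 0% and 3.17% and at Dapk1 between 0% and 1.06% in all 5 libraries. The same order of CpG density thus held a promoter that was partly methylated (Id4) and one that was not (Dapk1). The GC box (GGGCGG, on either strand), which SP factors bind and which 35.7% of all 32851 RefSeq promoters of this length hold, was found 5 times at Id4, 2 times each at Socs1, Dapk1 and the downstream start of Cdkn1a, and not at the upstream start of Cdkn1a. Of the other words searched on both strands, none of which contains another, TTGCGCAA, a palindrome that CEBP factors bind (0.183% of all promoters), was in none of the 11 sequences. TGACGTCA (1.79%) was found once, at Cdkn2b, and CACGTG (7.15%) and TATAAA (13.6%) once each, at Wif1.

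A promoter was taken as the 1 kb upstream and the 1 kb downstream of the start of a gene. At this scale 5 of the 10 promoters, those of Cdkn2b, Cdkn1a, Cdh1, Wif1 and Id4, had a higher level in all 3 Tet2-/- libraries than in both Tet2+/+ libraries, where 32.8% of all 19455 promoters tested did so. The promoter of Socs1 was lower in all 3 Tet2-/- libraries, as 4.05% of all promoters were, at a level close to the conversion control. Those of Cdkn2a, Rassf1, Sfrp1 and Dapk1 overlapped between the groups. Centring each library on its median over all promoters lowered the difference of every promoter by the same 0.45 on the scale of the log2 ratio of methylated to unmethylated calls, so the promoters of Cdkn2a, Cdkn2b, Rassf1 and Sfrp1, whose differences were smaller than that, changed sign by construction. Without centring, the median difference of the 10 promoters was 3.95 percentage points (Tet2-/- minus Tet2+/+), and the median over all promoters was 2.22. None of the 10 passed edgeR's quasi-likelihood test on the counts of methylated and unmethylated calls (lowest adjusted p = 0.134), which called 1.06% of all promoters higher in Tet2-/- blasts. At an unadjusted p under 0.05 there were 5 of the 10, against 18.1% of all promoters. Limma called 0 of the 10, and the share of all promoters it called is not given. EdgeR's likelihood ratio test called 1, Id4 (adjusted p = 0.0246), where it called 5.37% of all promoters higher. The quasi-likelihood test was also run on simulated data with these depths and levels and an assumed spread between libraries. The simulation used the same spread setting for every region and, unlike these data, had no shift of whole libraries. There it missed changes larger than any seen at these promoters, so a promoter without a call may still differ. The exact permutation test cannot go below p = 0.1 with 2 and 3 libraries, and that value was reached by Wif1 and Socs1.

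**Figure D1:**
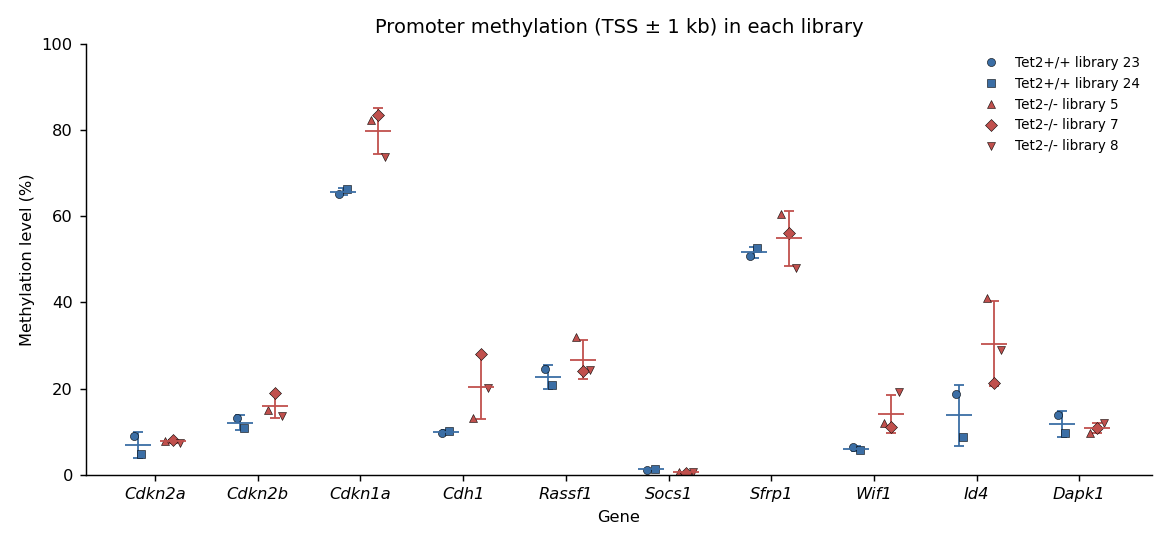
Methylation level (y axis, percent) within 1 kb of the 5′ end of each of the 10 genes (x axis). Blue points are the Tet2+/+ libraries (23 and 24) and red points the Tet2-/- libraries (5, 7 and 8), and the long dash with bars is the mean with 1 SD. Socs1 lies at or below 1.38% and Sfrp1 near 50% in both groups, while at Cdh1, Wif1 and Id4 a different Tet2-/- library is the highest at each gene.

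Cdkn2a, the gene of the p16INK4A and ARF proteins, and Cdkn2b, which lies upstream of it on the same strand of chromosome 4 and encodes p15INK4B, were largely unmethylated at their starts. The 5′ end of Cdkn2a (chr4:89293653-89295653 with its flanks) is that of the ARF transcript. Its level was 9.08% and 4.77% in the Tet2+/+ libraries, against 7.82%, 8.05% and 7.46% in Tet2-/- libraries 5, 7 and 8. The Tet2-/- libraries fell between the 2 Tet2+/+ libraries (difference 0.853 points, edgeR adjusted p = 0.794). Within 250 bp of the start no library exceeded 4.75%, with 134 to 421 calls. The unmethylated stretch, counted in windows of 500 bp with a pooled level under 20%, reached 1000 bp upstream in both groups and 500 bp downstream in Tet2+/+ blasts, where the first downstream window stood at 19.4% in Tet2+/+ and 22.6% in Tet2-/- pooled calls. The largest window difference of Cdkn2a, 15.4 points, lay 1500 to 1000 bp upstream (chr4:89295654-89296153), with 53.8% and 42.1% in Tet2+/+ and 41.4%, 84.4% and 64.5% in Tet2-/- libraries, which overlapped (edgeR adjusted p = 0.610). At the Cdkn2b promoter (chr4:89310039-89312039) levels were 13.3% and 10.8% in Tet2+/+ and 15.1%, 19.0% and 13.6% in Tet2-/- libraries. All 3 Tet2-/- libraries were higher, by 3.86 points in the mean, less than the shift of all promoters on the log2 scale, and the test did not call it (edgeR adjusted p = 0.540). Its core, the 250 bp on either side of the start, gave 0% and 1.47% in Tet2+/+ and 2.48%, 9.17% and 3.61% in Tet2-/- libraries, so library 7 stood highest both there and over the whole promoter. The 0% of library 23, from 161 calls, allows a level of up to 1.86%. The largest window difference of Cdkn2b, 22.96 points, lay 4000 to 4500 bp downstream over an exon (chr4:89306540-89307039), with 51.4% and 31.0% in Tet2+/+ and 68.8%, 29.5% and 94.1% in Tet2-/- libraries, so that the groups overlapped (edgeR adjusted p = 0.488).

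At Cdkn1a, which encodes the p53 target p21, the 5′ end of the gene lies in a CpG-poor stretch with 17 CpGs within 1 kb (chr17:29089976-29091976). There the level was 65.1% and 66.3% in the Tet2+/+ libraries, against 82.2%, 83.5% and 73.7% in Tet2-/- libraries 5, 7 and 8, with 57 to 121 calls. The groups did not overlap, and the difference of 14.1 points was not called (edgeR adjusted p = 0.256). In library 8 the 95% Wilson interval from 57 calls ran from 61.0% to 83.4%, which covers both Tet2+/+ levels. The 4 windows from 500 to 2500 bp downstream of the 5′ end lay higher in all 3 Tet2-/- libraries, by 13.3 to 20.1 points. The window with the largest difference (chr17:29091476-29091975, 500 to 1000 bp downstream) had 75.8% and 61.1% in Tet2+/+ and 94.4%, 89.3% and 81.8% in Tet2-/- libraries (exact permutation p = 0.1, edgeR adjusted p = 0.234). Then the level fell within a single step to between 0% and 1.85% in each library, and it stayed at or below 3.76% in the 5 windows from 2500 to 5000 bp downstream, where the second start site lies.

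Sfrp1 stood apart from the other CpG-rich members, since between 48.0% and 60.6% of the calls at its promoter were methylated in both genotypes. Over chr8:23410502-23412502, with 150 CpGs, the level was 50.7% and 52.6% in the Tet2+/+ libraries, against 60.6%, 56.1% and 48.0% in Tet2-/- libraries 5, 7 and 8. Library 8 lay below and the others above both Tet2+/+ libraries (difference 3.21 points, edgeR adjusted p = 0.813), and the difference was 0.376 points without library 5 and 6.67 points without library 8. At the start itself, within 250 bp, levels were between 51.2% and 62.1%. Of the CpGs with at least 5 pooled calls, 82.4% in Tet2+/+ (70 of 85) and 73.2% in Tet2-/- blasts (104 of 142) had a level from 20% to 80%, and these shares depend on the number of calls per CpG. No window next to the start was under 20%, so Sfrp1 had no unmethylated stretch in either group. Its largest window difference, 18.4 points, lay 3500 to 3000 bp upstream (chr8:23408002-23408501), with 45.8% and 31.8% in Tet2+/+ and 63.0%, 58.8% and 50% in Tet2-/- libraries, from 3 CpGs and 10 to 34 calls (exact permutation p = 0.1, edgeR adjusted p = 0.559).

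Wif1, the other Wnt antagonist, had an unmethylated start, with higher Tet2-/- levels on both of its sides. The promoter (chr10:121032960-121034960) had 6.49% and 5.65% in Tet2+/+ and 11.9%, 11.1% and 19.2% in Tet2-/- libraries 5, 7 and 8. All 3 Tet2-/- libraries were higher, by 8.01 points in the mean (exact permutation p = 0.1), and edgeR's test did not call it (adjusted p = 0.135). Within 250 bp of the start the level was 1.19% to 2.08% in the 5 libraries, with no order between the groups. The window just upstream of the start was at 1.59% or less in each library. Just downstream, from 0 to 500 bp, levels were 6.80% and 9.02% in Tet2+/+ and 18.7%, 14.02% and 26.7% in Tet2-/- libraries, and from 500 to 1000 bp they were 16.4% and 8.33% against 37.5%, 29.5% and 32.6%. The unmethylated stretch reached 1000 bp downstream in Tet2+/+ and 500 bp in Tet2-/- blasts. The largest difference, 30.6 points, lay 1500 to 1000 bp upstream (chr10:121032460-121032959), with 40% and 0% in Tet2+/+ and 50%, 51.9% and 50% in Tet2-/- libraries. That window had 11 calls in library 24, where 0% allows up to 27.3% (edgeR adjusted p = 0.415). The difference was 10.6 points without library 24 and 50.6 points without library 23.

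At Cdh1, Tet2-/- libraries 7 and 8 stood well above library 5. The promoter (chr8:106602351-106604351) had 9.74% and 10.2% in the Tet2+/+ libraries, against 13.1%, 28.1% and 20.05% in Tet2-/- libraries 5, 7 and 8. All were higher than both Tet2+/+ libraries (difference 10.4 points, edgeR adjusted p = 0.179), and library 5 stood nearest to them. The 500 bp upstream of the start (chr8:106602851-106603350) split the libraries most: 9.64% and 3.03% in Tet2+/+, 6.35% in library 5, 60.2% in library 7 and 31.1% in library 8. The groups overlapped there, and the adjusted p by edgeR was 0.133. Without library 5 the same window was at 6.33% in Tet2+/+ and 45.7% in Tet2-/- blasts and passed the test (adjusted p = 0.00796), the single call among the members' windows in any set of libraries. Library 5 was the lowest Tet2-/- library in this window, and the share of all windows called without it is not given. By pooled calls the unmethylated stretch reached 500 bp upstream in Tet2+/+, and in Tet2-/- blasts it began at the start itself. Tet2-/- library 5, at 6.35% in that window, did not show this. The largest difference of group means, 29.8 points, lay 1000 to 1500 bp downstream (chr8:106604351-106604850), with 42.9% and 55.6% in Tet2+/+ and 83.5%, 79.1% and 74.6% in Tet2-/- libraries (exact permutation p = 0.1, edgeR adjusted p = 0.159). There all 3 Tet2-/- libraries lay together.

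With all 5 libraries Id4 had the largest promoter difference of the 10, and it had a wide spread within both groups. Over chr13:48260228-48262228, with 165 CpGs, the level was 18.8% and 8.85% in the Tet2+/+ libraries, against 41.1%, 21.3% and 29.0% in Tet2-/- libraries 5, 7 and 8. The lowest Tet2-/- library was just above the highest Tet2+/+ library. The difference of means was 16.7 points (13.8% ± 7.01 against 30.5% ± 9.96, SD, n = 2 and 3), larger than at 92.4% of all promoters, and it did not pass the quasi-likelihood test (edgeR adjusted p = 0.134). Its rank depended on single libraries. Without library 5 the difference was 11.4 points, against 14.1 at Cdh1 and 12.9 at Cdkn1a. Without library 24 it was 11.7 points, against 14.7 at Cdkn1a. The window with the largest difference, 28.3 points, covers 500 to 1000 bp downstream and overlaps an exon (chr13:48261728-48262227), with 20% and 13.3% in Tet2+/+ and 57.8%, 31.8% and 45.2% in Tet2-/- libraries (edgeR adjusted p = 0.141). The share of CpGs with a level from 20% to 80% was 24.6% in Tet2+/+ (29 of 118) and 56.95% in Tet2-/- blasts (86 of 151), whereas CpGs above 80% were 1 and 4. These CpGs had at least 5 calls pooled over the 2 or 3 libraries of a group. The shares thus depend on the number of calls per CpG and on the spread between libraries. The promoter also overlaps the antisense gene A330033J07Rik and the lincRNA gene Gm49291, so the region is not that of Id4 alone.

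Rassf1 and Dapk1 kept unmethylated cores with methylated flanks. At Rassf1 (chr9:107550555-107552555) levels were 24.6% and 20.8% in Tet2+/+ and 31.9%, 23.99% and 24.3% in Tet2-/- libraries 5, 7 and 8, which overlapped (difference 4.04 points, edgeR adjusted p = 0.695, and 1.46 points without library 5). Within 250 bp of the start the level was at most 2.20% in each library. The largest window difference, 22.0 points, lay 5000 to 4500 bp upstream (chr9:107546555-107547054), outside the gene, with 13.98% and 26.4% in Tet2+/+ and 32.0%, 52.1% and 42.6% in Tet2-/- libraries (edgeR adjusted p = 0.317). The Rassf1 promoter window overlaps the neighbouring gene Zmynd10 and the antisense gene Gm34106. At Dapk1 (chr13:60600947-60602947) levels were 13.9% and 9.74% in Tet2+/+ and 9.75%, 10.8% and 12.0% in Tet2-/- libraries, a difference of -0.96 points (edgeR adjusted p = 0.879). Its core did not exceed 1.53% in any library, and the 3 windows from 500 bp upstream to 1000 bp downstream did not exceed 3.06%. By contrast the windows 5000 to 4000 bp upstream were higher in all 3 Tet2-/- libraries. The second of them (chr13:60597447-60597946) showed the largest difference of the gene, 27.5 points, with 63.0% and 54.1% in Tet2+/+ and 93.1%, 87.2% and 77.8% in Tet2-/- libraries (exact permutation p = 0.1, edgeR adjusted p = 0.172).

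Socs1 had the lowest promoter level of the 10. Over chr16:10784536-10786536, with 159 CpGs, it was 1.21% and 1.38% in the Tet2+/+ libraries, against 0.542%, 0.464% and 0.632% in Tet2-/- libraries 5, 7 and 8. These are 7 and 7 methylated calls in 580 and 509, against 5, 5 and 3 in 923, 1077 and 475. The 95% Wilson intervals of the Tet2+/+ libraries (0.586% to 2.47% and 0.668% to 2.81%) overlapped those of the Tet2-/- libraries (0.232% to 1.26%, 0.198% to 1.08% and 0.215% to 1.84%). EdgeR's p was 0.0351 before and 0.239 after adjustment, and limma's 0.025 and 0.222. With centred libraries limma's were 0.00322 and 0.29, but centring lowers every difference and so enlarges this decrease by construction. All these levels were close to the conversion control. The unmethylated stretch of 2500 bp, from 1000 bp upstream to 1500 bp downstream, was equally long in both groups. Directly next to it, 1500 to 2000 bp downstream and still overlapping an exon of the annotated gene, lay the largest window difference of all members. There (chr16:10783537-10784036, 8 CpGs) levels were 28.0% and 7.14% in Tet2+/+ and 64.6%, 63.0% and 50% in Tet2-/- libraries, a difference of 41.6 points. It had 14 to 48 calls per library and did not pass over all windows (exact permutation p = 0.1, edgeR adjusted p = 0.114). The window beyond it, 2000 to 2500 bp downstream with 4 CpGs, was at 0% in both Tet2+/+ libraries and at 7.69%, 13.7% and 15.4% in Tet2-/- libraries (edgeR adjusted p = 0.11). The 25 and 33 calls behind the levels of 0% allow up to 12% and 9.09%, which covers library 5. At 3000 to 3500 bp downstream the order was the opposite, with 74.3% and 73.3% in Tet2+/+ and 47.2%, 65.8% and 46.4% in Tet2-/- libraries, the largest decrease among the members (20.7 points lower in the mean).

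**Figure D2:**
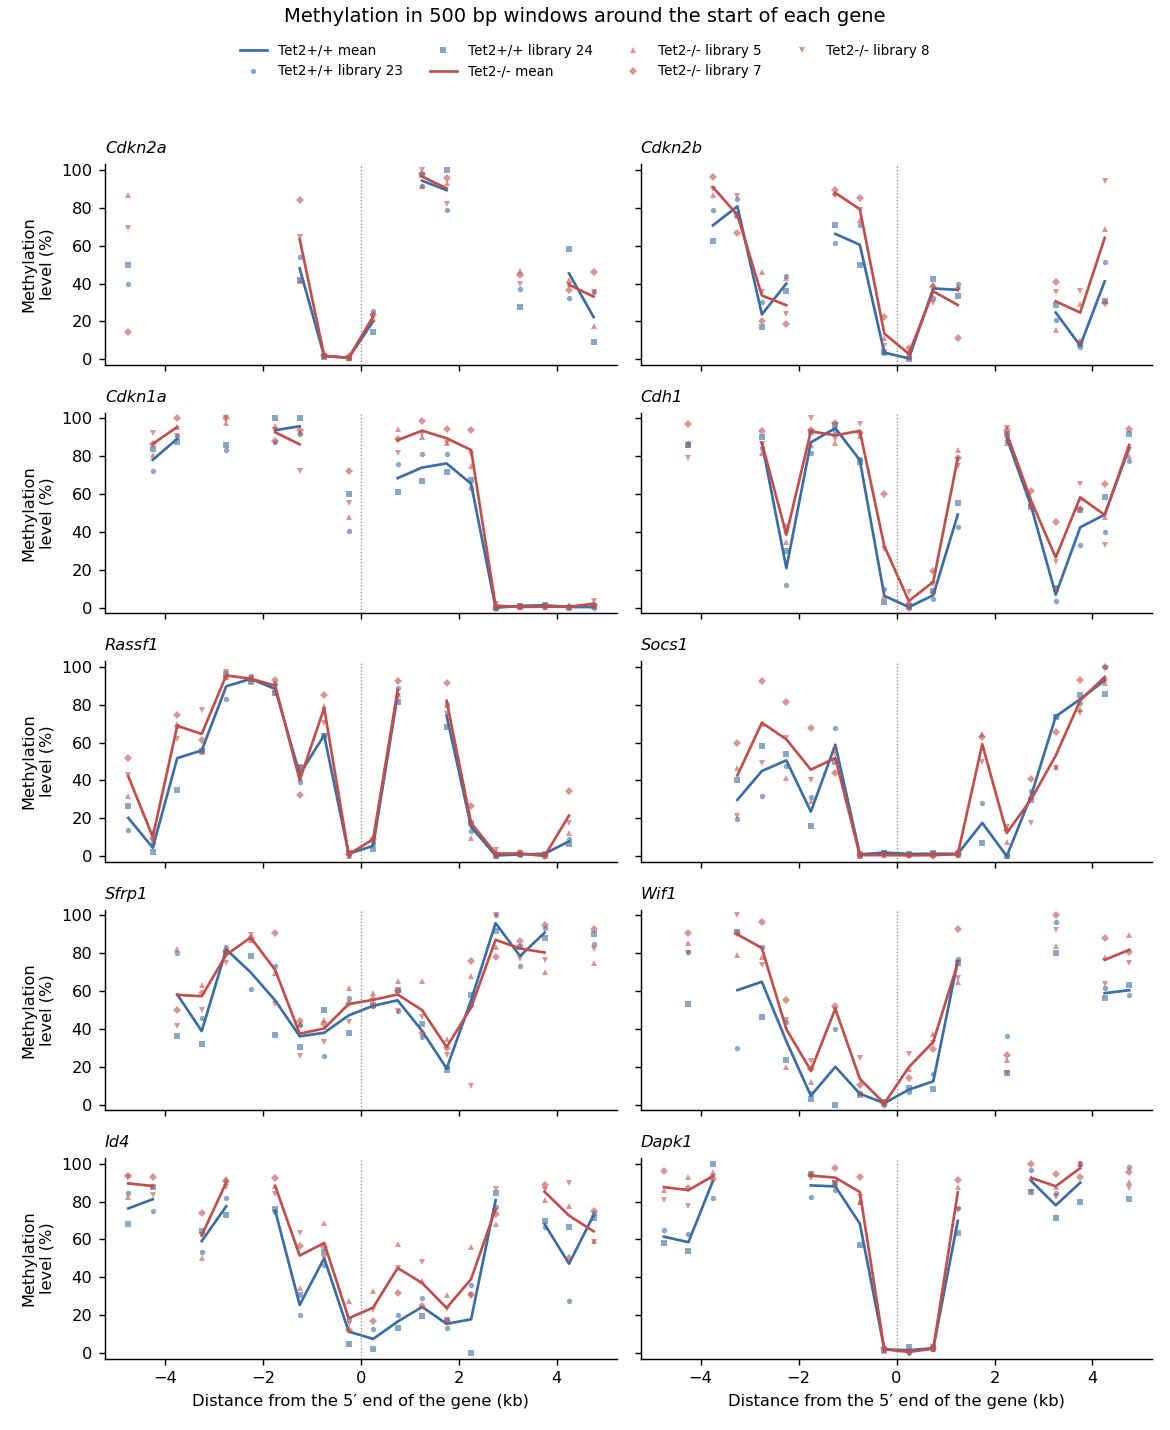
Methylation level (y axis, percent) in windows of 500 bp by distance from the 5′ end of each gene (x axis, kb, with the direction of the gene). Lines are the means of Tet2+/+ (blue) and Tet2-/- (red) libraries and points the single libraries; windows with under 10 calls in any library are left out, and lines break there. The unmethylated troughs at Dapk1, Socs1 and Rassf1 coincide in both groups, the Tet2-/- line lies above at the shoulders of Wif1 and Cdh1 and around the start of Id4, Sfrp1 has no trough, and the trough of Cdkn1a starts 2.5 kb downstream of its 5′ end.

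Of the 200 windows of 500 bp within 5 kb of the 10 starts, 151 had at least 10 calls in every library. In 44 of them all Tet2-/- libraries were above both Tet2+/+ libraries, or 29.1%, against 30.4% of all 245896 windows tested around protein-coding genes. In 7 they were below both, where 3.18% of all windows were, and 6 of these 7 were at or below 2% in every library. The median difference was 5.91 points in the members' windows and 5.04 points in all windows. By edgeR's quasi-likelihood test 0 of the 151 were called (lowest adjusted p = 0.102), where 1.74% of all windows were called higher. Limma also called 0, and the share of all windows it called is not given. An unadjusted p under 0.05 was found in 21 of the 151, against 14.8% of all windows.

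The size of a difference went with the level of the window. In the 36 windows with a mean level under 20% the differences ran from -1.32 to 19.6 points with a median of 1.06, in the 73 windows from 20% to 80% the median was 11.5 points and the range -20.7 to 41.6, and in the 42 windows over 80% the median was 3.19 points. Over all genes the same classes had medians of 0.588, 13.6 and 4.16 points. Under 20% all Tet2-/- libraries were higher in 14 of the 36 windows, or 38.9%, where 18.9% of all such windows were, and lower in 6, where 5.99% were. These 6 windows, at Cdkn1a, Rassf1 and Socs1, were at or below 2% in every library, near the conversion control. Among the 14, the window 3000 to 3500 bp downstream at Rassf1 was also at or below 1.66%. From 20% to 80% all Tet2-/- libraries were higher in 21 of the 73 windows, or 28.8%, where 40.6% were, and over 80% in 9 of the 42, or 21.4%, where 27.0% were. The share over the 151 windows thus joins a higher share at low levels and lower shares above, and neighbouring windows of a gene are not independent. The levels that set the class also enter the difference, so these figures are a description. At 9 of the 10 genes the largest difference lay in a window of intermediate level, and at Cdkn1a in a window at 80.5%.

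Several members have more than 1 start site of protein-coding transcripts, and these sites differed in level. At Cdkn1a the downstream start (2793 bp from the 5′ end of the gene, chr17:29092769-29094769 with flanks) had 10.2% and 9.72% in Tet2+/+ and 13.0%, 15.7% and 11.3% in Tet2-/- libraries 5, 7 and 8. All 3 were higher, by 3.34 points, but within 500 bp of this start the difference was 0.0506 points. The start farthest downstream (Cdkn1a-203, 6924 bp downstream, chr17:29096900-29098900) showed the largest difference of any start site: 31.9% and 28.4% in Tet2+/+ and 57.3%, 82.8% and 63.9% in Tet2-/- libraries, 37.8 points apart (exact permutation p = 0.1). With 500 bp on each side the difference was 14.1 points. Within 250 bp the level was 78.1% to 95.5% in the 5 libraries. Of the 3 start sites of Cdkn1a, the CpG-rich one thus had the smallest difference.

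At the second start of Cdkn2a (12461 bp downstream), which gives the p16INK4A transcript (chr4:89281192-89283192), levels were 12.4% and 4.46% in Tet2+/+ and 15.9%, 17.7% and 10.6% in Tet2-/- libraries. The groups overlapped (difference 6.30 points, exact permutation p = 0.3), and the difference was 2.33 points without library 24 and 10.3 without library 23. Within 250 bp of that start levels were 11.9% and 4.55% against 12.1%, 19.3% and 9.09%, above those at the ARF start in each library. At the Rassf1 start 3028 bp downstream, levels were 1.48% to 2.76% in the 5 libraries, and at the Dapk1 start 264 bp from the first 10.7% to 14.8%. The median difference over the 5 additional start sites was 3.34 points with 1 kb on each side and 0.732 points with 500 bp.

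**Figure D3:**
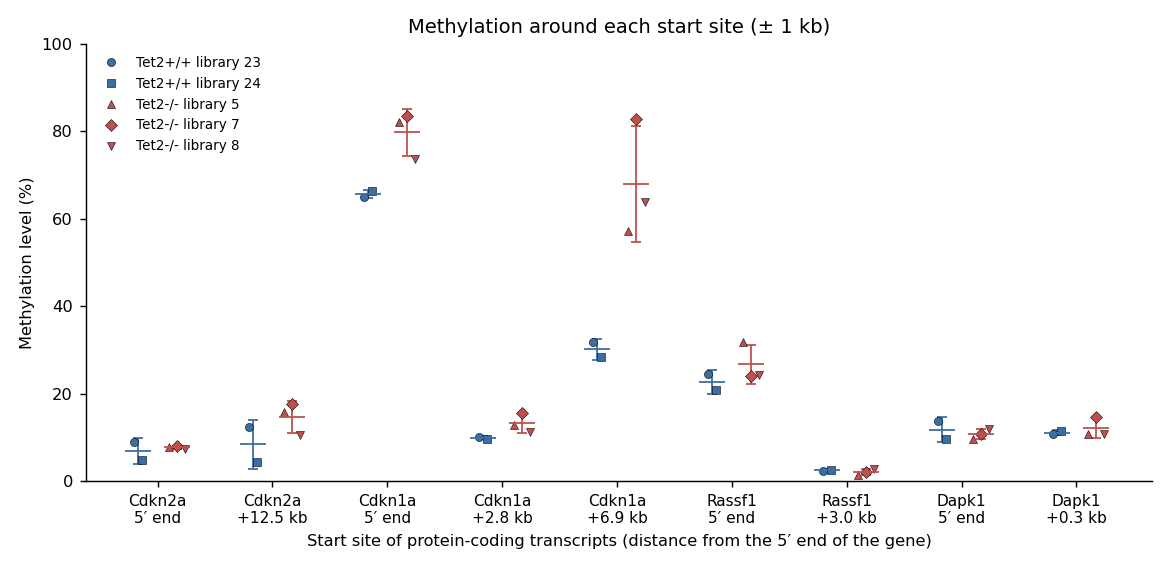
Methylation level (y axis, percent) within 1 kb of each start site of protein-coding transcripts in the 4 members with more than 1 (x axis, with the distance from the 5′ end of the gene). Blue points are Tet2+/+ and red points Tet2-/- libraries, and the long dash with bars is the mean with 1 SD. At Cdkn1a the groups lie apart by 14.1 points at the 5′ end and by 37.8 points at the start 6.9 kb downstream, and by 3.34 points at the start between them.

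Over whole genes all 10 members had a higher mean in Tet2-/- blasts, by 1.02 to 17.0 points, where 87.9% of all 20715 gene bodies did so. In 7 of the 10 all Tet2-/- libraries were above both Tet2+/+ libraries, as 46.0% of all gene bodies were, the others being Rassf1, Socs1 and Sfrp1. The differences of Rassf1, Socs1 and Sfrp1 were smaller than the shift of all gene bodies on the log2 scale (0.42) and so change sign when libraries are centred. The median difference was 6.58 points, against 4.95 over all gene bodies. EdgeR's quasi-likelihood test called 3 of the 10, Id4, Wif1 and Cdkn1a, all higher, where 15.5% of all gene bodies were called higher. An unadjusted p under 0.05 was found at 5 of the 10, against 29.2% of all gene bodies. Limma called 0, and the share of all gene bodies it called is not given. On simulated gene bodies with the same assumed spread the quasi-likelihood test made more false calls than its threshold allows, which bears on these 3. How far this holds at the real spread between libraries was not tested.

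Wif1 (chr10:121033960-121100650, 911 CpGs) rose over its body, from 69.7% and 60.1% in Tet2+/+ to 78.6%, 79.8% and 73.6% in Tet2-/- libraries 5, 7 and 8 (difference 12.5 points, edgeR adjusted p = 0.00625, and 7.63 points without library 24). Only 4.39% of these CpGs lay in the promoter, and without the first 2000 bp it was the 1 member still called (adjusted p = 0.0453). Id4 (chr13:48261228-48266026, 181 CpGs) had 23.6% and 16.3% in Tet2+/+ and 43.6%, 26.4% and 40.6% in Tet2-/- libraries (difference 17.0 points, edgeR adjusted p = 0.00139). Here 56.9% of the CpGs belonged to the promoter as well, so the values are not independent, and without the first 2000 bp the adjusted p was 0.293. Cdkn1a (chr17:29090976-29100727, 302 CpGs) had 23.2% and 19.9% in Tet2+/+ and 30.5%, 33.7% and 29.9% in Tet2-/- libraries (difference 9.80 points, edgeR adjusted p = 0.0206, and 0.132 without the first 2000 bp). These calls depended on single libraries. Without Tet2+/+ library 24, the least methylated, only 1 Tet2+/+ library was left, so no test result is given here for that setting. The differences were then 13.3 points at Id4, 7.63 at Wif1 and 8.14 at Cdkn1a. Without Tet2-/- library 5 only Id4 remained called (edgeR adjusted p = 0.0490). The share of all gene bodies called in the same setting is not given, so a lost call cannot be read as particular to these genes. The body of Dapk1, 161245 bp long, had means of 77.0% in Tet2+/+ and 84.1% in Tet2-/- blasts (edgeR adjusted p = 0.106), and that of Cdh1 67.5% and 73.5% (adjusted p = 0.233).

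**Figure D4:**
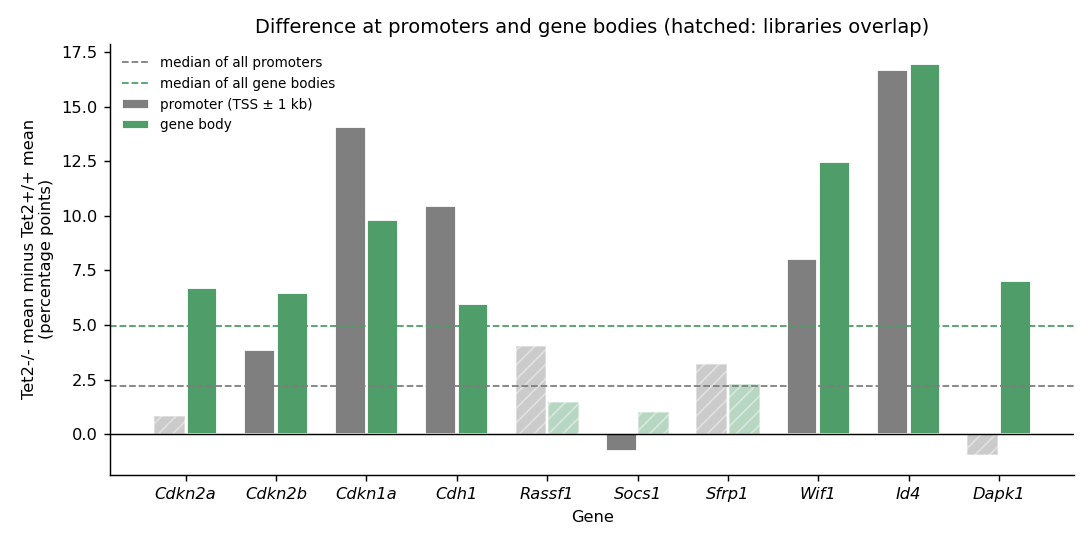
Difference of the group means (y axis, Tet2-/- minus Tet2+/+, percentage points) at the promoter (grey) and over the gene body (green) of each gene (x axis), with dashed lines for the medians of all promoters (2.22) and of all gene bodies (4.95). Hatched bars are those in which libraries of the groups overlap; Cdkn2a and Dapk1 differ by 6.70 and 7.04 points over the body and by 0.853 and -0.96 points at the promoter.

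CpG content was compared with the level of each promoter. Of the 10 promoters 9 belonged to the CpG-rich class, defined by a 500 bp window with an observed to expected CpG ratio over 0.75 and a GC content over 55%, and Cdkn1a was CpG-poor, with no window over a ratio of 0.48. Among all 10503 CpG-rich promoters 16.0% had a mean level over 20% and 2.77% over 50%. The levels of Sfrp1 (53.6% in the mean of the 5 libraries), Rassf1 (25.1%) and Id4 (23.8%) were higher than those of 97.8%, 87.8% and 86.8% of that class, and the level of Socs1 (0.844%) was higher than that of 5.37%. Cdkn1a, at 74.2%, was in the middle of its class, above 61.3% of the CpG-poor promoters. This holds for its 5′ end only, since the start 2793 bp downstream, with 106 CpGs within 1 kb, was not classed. The median difference of the 9 CpG-rich members was 3.86 points, and that of all CpG-rich promoters was 0.85 points, but the members also had the higher level in Tet2+/+ blasts, with a median of 11.8% against 5.14%.

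**Figure D5:**
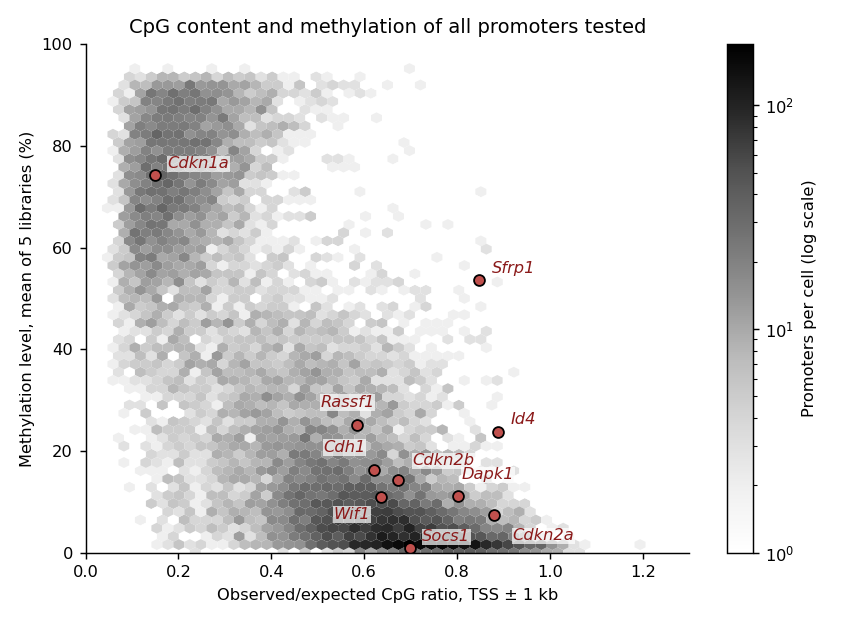
Mean methylation level of the 5 libraries (y axis, percent) against the observed to expected CpG ratio (x axis) for all 19455 promoters tested, shaded by the number of promoters per cell on a log scale, with the 10 genes as red points. Sfrp1, at a ratio of 0.848 and 53.6%, lies above 97.8% of the CpG-rich promoters, Id4 lies at 0.888 and 23.8%, and Cdkn1a, taken at its 5′ end, lies among the CpG-poor promoters at 0.149 and 74.2%.

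Genes of the same pathways and families were taken as 8 lists of 98 genes, of which 96 were tested at their promoters. EdgeR's quasi-likelihood test called 0 of them. Limma also called 0, and the share of all promoters it called is not given. The likelihood ratio test called 3 (Cadm1, Cdh3 and Timp3), where it called 5.37% of all promoters higher. An unadjusted p under 0.05 was found at 16 of the 96, against 18.1% of all promoters. In 26 of the 96 the Tet2-/- libraries were all higher and in 8 all lower, where 32.8% and 4.05% of all promoters were, and the median difference was 0.987 points, below the 2.22 points of all promoters. The counts of single lists are to be read against these shares. The Wnt antagonists held 6 higher and 2 lower of 16, the largest at Sost, an inhibitor of Wnt coreceptors, from 36.5% to 54.0% (edgeR adjusted p = 0.337), a difference that was 7.11 points without library 24 and 27.8 without library 23. The RASSF family and Hippo kinases had 5 higher and 2 lower of 16, the largest at Rassf6, from 33.6% to 54.1% (adjusted p = 0.138). Cadherins and catenins had 3 higher of 7, with P-cadherin (Cdh3) from 13.3% to 31.0% (adjusted p = 0.0946), and DAPK family and cell death genes 4 higher and 1 lower of 11, with Dapk2 from 14.6% to 26.7% (adjusted p = 0.241, and a difference of 7.04 points without library 8). Among 16 other genes often methylated in tumours 7 were higher and 1 lower, the largest of these at the DNA repair gene Mgmt, from 30.2% to 46.8% (adjusted p = 0.242). The CDK inhibitors with the RB and p53 pathway had 1 higher, Cdkn1b (1.26% to 3.53%, adjusted p = 0.135), and 2 lower of 13. With 500 bp on each side the Cdkn1b difference fell from 2.27 to 0.19 points. The SOCS family with other JAK-STAT inhibitors (12 genes) and the ID family with E proteins (5 genes) had no promoter at which the groups lay apart.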

How the data were processed

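Whole-genome bisulfite libraries of sorted Cebpa-/p30 leukemic blasts were analysed, 2 Tet2+/+ and 3 Tet2-/-. Per the labels and the study's methods, the authors trimmed reads with Trim Galore 0.4.3, checked them with FastQC 0.11.7, aligned them to GRCm38/mm10 with Bismark 0.19.1 and Bowtie2, removed duplicate alignments by Bismark's deduplication, and deposited counts of methylated and unmethylated calls for each CpG cytosine. Libraries were made by random priming without molecular identifiers, so intervals and floors (3 counts) cover counting error only.

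Calls of both strands of a CpG were summed. Each library gave 63111735 to 110752967 calls. The level of a region is its methylated calls over all calls. Regions were promoters (from 1000 bp before to 1000 bp after the start, at least 20 calls in every library), 20 windows of 500 bp per gene (at least 10 calls) and gene bodies (at least 20 calls). Differences were tested on both kinds of counts with edgeR 4.0.16 (quasi-likelihood, trended dispersion, Benjamini-Hochberg over all regions of a kind, threshold 0.05, R 4.3.3), and per region with a two-sided exact permutation test over libraries. Limma 3.58.1 was run on log2((methylated + 2)/(unmethylated + 2)), with and without centring of libraries. The fits were tested on simulated data with the real depths and levels and an assumed spread between libraries. Python 3.11.15, numpy 2.4.6, pandas 2.3.3, scipy 1.17.1 and matplotlib 3.10.9 were used.

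The members, gene lists and tests were chosen with earlier results of these data known. Named were all members, each member's window with the largest difference and every window called, and from each list the promoters called and the one with the largest difference among those without overlap. Naming Cadm1 and Timp3, the windows beside Socs1, Wif1 and Cdh1 and the downstream start of Cdkn1a was decided after their values were seen. Further windows of Cdkn2a, Cdkn1a and Dapk1 were also named outside this rule. Alternatives were other flanks, minimums, thinned calls, shared CpGs, moved windows, trimmed bodies, other tests and leaving out each library.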

Additional observations from a re-analysis of the deposited data

How the results depend on the processing

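With 2 and 3 libraries the exact permutation test cannot go below p = 0.1, and 57 to 121 calls at the Cdkn1a promoter limit what can be seen there. No paired analysis was possible because the groups share no replicate numbers. The count of member promoters called was 0 in 14 of the 15 alternatives, every set without 1 library included, and 1 under the likelihood ratio test. Of the members' windows 0 to 1 were called when 1 library was left out. Of the gene bodies 0 to 3 were called when 1 library was left out, 1 without the first 2000 bp, and 0 by limma with or without centring, and the cause was not tested. The shares of all windows and of all gene bodies called in these settings are not given. The median over the 5 additional start sites moved from 3.34 to 0.732 points with 500 bp on each side, and ran from 2.16 to 4.35 points when 1 library was left out. The median promoter difference stayed between 2.87 and 5.53 points and that of gene bodies between 4.78 and 8.72 points when 1 library was left out.

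Signs turned at regions with small differences. When 1 library was left out, the promoter difference ran from -1.30 to 3.01 points at Cdkn2a and from -3.02 to 1.10 points at Dapk1, the gene body difference from -0.60 to 3.56 points at Rassf1 (with -0.45 as a further value below 0) and from -0.090 to 5.43 points at Sfrp1, and the difference at the Dapk1 start 264 bp downstream from -0.34 to 1.67 points. With 2000 bp on each side the Socs1 and Dapk1 promoters were at 0.132 and 0.154 points, and Dapk1 was at 0.178 points with calls thinned to the shallowest library. With 500 bp on each side the Rassf1 start 3028 bp downstream was at 0.732 and that Dapk1 start at -0.36 points. The cause was not tested. Without a change of sign, leaving out 1 library moved the promoter difference to between 0.376 and 6.67 points at Sfrp1, 1.46 and 5.96 at Rassf1, 2.30 and 5.10 at Cdkn2b, and 6.6 and 14.1 at Cdh1. The largest window difference ran from 4.97 to 26.5 points at Cdkn2a, 7.96 to 40.3 at Cdkn2b, 12.8 to 27.4 at Cdkn1a, 11.4 to 25.4 at Sfrp1 and 10.6 to 50.6 at Wif1. Gene body differences ran from 2.91 to 10.5 points at Cdkn2a, 4.04 to 8.57 at Cdkn2b, 3.64 to 8.30 at Cdh1, 7.63 to 17.3 at Wif1 and 4.12 to 9.96 at Dapk1. Of the 87 alternative values for the windows with the largest differences none turned or moved past the threshold. These windows were picked for the size of their difference in the same data, so that outcome was largely fixed. The choice also bears on their exact permutation p.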
